A study of Mus musculus with 2 samples.

Results

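Embryonic stem (ES) cells rich in immediate early gene transcripts were taken from single-cell RNA-seq of wild-type (WT) and *Lin28a* knockout (AKO) mouse ES cells. The cells were chosen by the share of their transcripts that came from *Fos*, *Jun*, *Junb*, *Egr1*, *Ier2* and *Atf3*: the 5% of cells with the highest share were taken in each library, and the remaining 95% served as the reference. This gave 68 of 1362 kept WT cells and 39 of 779 kept AKO cells, or 107 of 2141 cells, out of 10389 cell barcodes in the 2 libraries. Kept cells had at least 2000 unique molecular identifiers (UMIs, each standing for 1 captured transcript), a mitochondrial share of 0.5 to 20%, at least 5% of UMIs on ribosomal protein (RP) genes and under 0.3% on *Col1a1*, *Col1a2* and *Col3a1*, the collagen genes of feeder fibroblasts. Both libraries were ICM-derived mouse ES cells grown in LIF/2i with mouse embryonic fibroblast (MEF) feeder cells for 2 days, so inhibitors of MEK and of GSK3 and the cytokine LIF were present in both. The WT cells were untreated and, by the paper's methods, clone a2.1. A supplementary legend of the paper calls a2.1 a transfected wild-type clone and lists it with un-transfected E14 cells. The AKO cells were clone a3.5, made with CRISPR/Cas9 and a guide against the second exon of *Lin28a*. Each genotype was thus 1 clone and 1 inDrop library, a droplet method, and no test between groups was possible. Intervals are exact 95% Poisson or binomial intervals and cover counting error only.

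Immediate early genes are transcribed within minutes of a growth factor, stress or depolarization signal, without new protein synthesis, and their transcripts are short-lived. FOS and the JUN proteins pair to form the transcription factor AP-1, EGR1 is a zinc finger transcription factor driven by ERK signalling, ATF3 is a stress-induced factor of the ATF/CREB family and IER2 is a small early-response nuclear protein. Among the early genes are also brakes on the same signals, such as the MAP kinase phosphatase DUSP1. In ES cells ERK signalling promotes exit from the naive state, and 2i medium blocks it.

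Early genes are commonly driven through the cAMP response element (CRE), the binding site of CREB and ATF proteins. The full site TGACGTCA, which reads the same on both strands and contains the shorter site TGACG, was searched for on both strands in windows of 300 bases, from 250 before to 50 after each RefSeq gene start of GRCm38.p6. Of the 6 genes that chose the cells, 4 had a usable window (*Fos*, *Jun*, *Junb* and *Atf3*), and the full site was in 0 of these. *Fos* carried 2 copies of the shorter site, of which the one shown begins 66 bases before its start. *Junb* and *Atf3* had 1 copy each and *Jun* 0, and 42.3% of compared genes and 23.0% of all genes with a window held the shorter site. The sites of *Fos* and of 3 genes that were higher in the chosen cells of both libraries are shown because they let the early genes be compared, each from up to 40 bases before to 40 bases after the site and with the site in capitals, 5′ to 3′ on the gene's own strand.
Fos (chr12:85473784-85473868, plus strand): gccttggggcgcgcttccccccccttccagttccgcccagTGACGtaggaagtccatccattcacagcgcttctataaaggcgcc
Dusp1 (chr17:26508568-26508655, minus strand): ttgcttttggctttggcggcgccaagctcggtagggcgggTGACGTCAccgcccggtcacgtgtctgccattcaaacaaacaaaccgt
Plk2 (chr13:110394942-110395029, plus strand): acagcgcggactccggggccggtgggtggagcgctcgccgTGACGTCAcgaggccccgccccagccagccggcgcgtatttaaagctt
Btg2 (chr1:134079274-134079361, minus strand): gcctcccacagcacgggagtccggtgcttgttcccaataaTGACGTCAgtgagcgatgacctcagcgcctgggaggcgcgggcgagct

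The full CRE lay 143 bases before the start of *Dusp1*, 62 before that of *Plk2* and 166 before that of *Btg2*. These were 3 of the 8 genes higher in both libraries, and the windows of the other 5 (*Sdc4*, *Tex19.1*, *Arhgef12*, *Foxn3* and *Cdkn1a*) held none. It was found in 1.79% of all 32851 windows, and in at least 1 window of 4.23% of the 2126 compared genes that had one. The AP-1 site, searched as TGACTCA and TGAGTCA, was in 0 of the 4 windows of the choosing genes and in those of *Tex19.1* and *Foxn3* among the genes described below, against 4.14% of compared genes. The CArG box, the site of the factor SRF, was also searched for. It was in 0 of the windows of the choosing genes and of the genes higher or lower in both libraries, against 1.79% of compared genes. These matches describe the letters of the windows and do not show that a factor was bound.

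The 2 libraries held 12079546 UMIs over 4329 barcodes (WT) and 10027710 UMIs over 6060 barcodes (AKO). *Lin28a*, the targeted gene, was at 119.7 UMIs per 1000000 UMIs (CPM, summed over the cells named) in kept WT cells (interval 112.7 to 127) and at 42.4 CPM (37.7 to 47.6) in kept AKO cells, a ratio of 0.354 (0.310 to 0.404). Transcripts with a small CRISPR deletion are still counted, so this level describes the library and does not measure the protein. The chosen cells had 97.9 CPM of *Lin28a* (69.9 to 133) in WT against 120.7 CPM (113.5 to 128) in the remaining WT cells, and in AKO 17.5 CPM (6.41 to 38.0, 6 UMIs) against 43.7 CPM (38.8 to 49.1).

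One chosen AKO cell went against its label. It had the highest share of the 6 genes of any kept cell, 0.988% of 18430 UMIs, while the second highest AKO cell was at 0.288%. This cell held 1 UMI of *Pou5f1*, the core pluripotency factor, and an ES marker share (summed *Pou5f1*, *Sox2*, *Nanog*, *Esrrb*, *Zfp42*, *Dppa5a* and *Tdgf1*) of 0.0163%, against medians of 0.428% in chosen and 0.383% in remaining AKO cells, of which the lowest was at 0%. Its collagen share of 0.244% lay just under the limit of 0.3%, with 34 UMIs of *Col1a1*, 16 of the fibroblast factor *Twist2*, 33 of the matrix gene *Tnc* and 22 of the chemokine *Ccl2*. The other 38 chosen AKO cells held 0 UMIs of *Twist2*, *Tnc* and *Ccl2*, and their ES marker shares ran from 0.271 to 0.661%. In WT the highest cell was at 0.615% of 3087 UMIs and had an ES marker share of 0.518%, and the chosen WT cells ranged from 0.189 to 0.645%. The label of ES cells therefore held for the chosen cells apart from this 1 AKO cell, and it is said at each AKO value whether it was left out (38 cells). AKO values with no such remark include it.

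**Figure D1:**
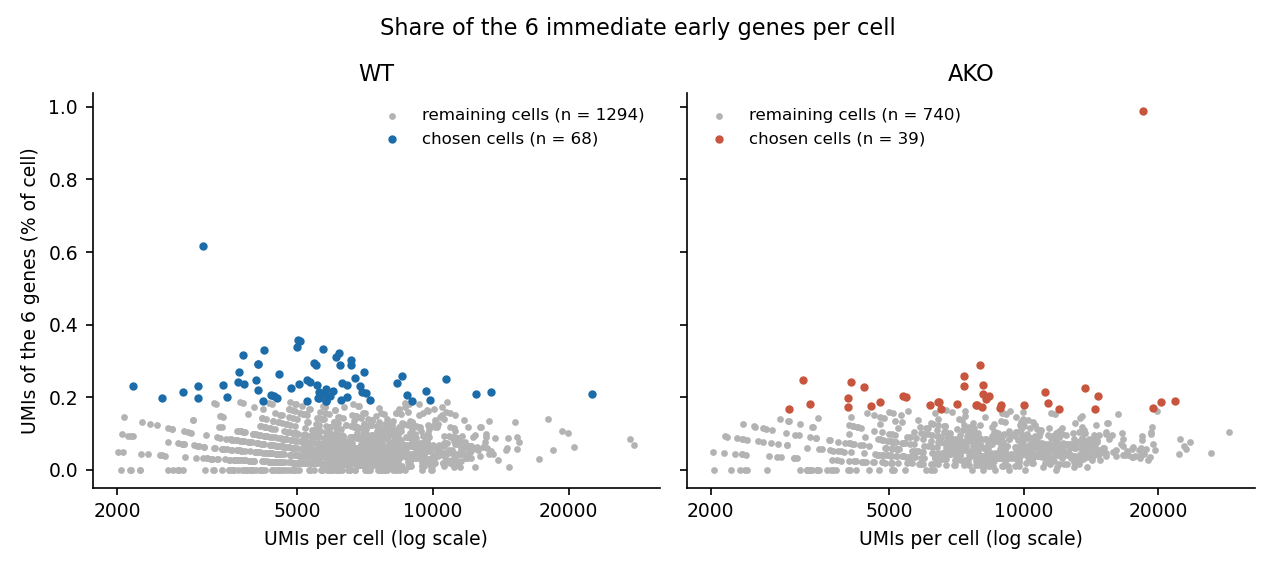
Share of a cell's UMIs on the 6 immediate early genes (vertical axis, percent) against the UMIs of the cell (horizontal axis, log scale) for each kept cell of WT (left) and AKO (right), with chosen cells in colour. The share ran without a gap across the limit in both libraries, and the AKO cell at 0.988% stood apart from the second at 0.288%.

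The choice cut a continuous range. In WT the lowest chosen cell had a share of 0.189% and the highest cell left out 0.187%, and in AKO these were 0.167% and 0.164%. The median over all kept cells was 0.0597% in WT and 0.0624% in AKO, and 93 WT cells (6.83%) and 39 AKO cells (5.01%) had 0 UMIs of the 6 genes. A chosen cell had a median of 13 such UMIs in WT and 15 in AKO, and at least 5, so the choice rested on small counts. Together the chosen cells held 14.8% of the UMIs of the 6 genes in WT and 16.2% in AKO. In the plot of share by depth the chosen cells covered most of the depth range.

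The levels of the 6 genes chose the cells and are given as a description. *Egr1* (chromosome 18) was the most abundant in chosen WT cells, at 1023 CPM (927 to 1126) against 195.5 CPM in the remaining cells, and was at 766 CPM (676 to 865) against 146.3 CPM in AKO, or 613 CPM without the highest cell. *Fos* (chr12:85473890-85477273, plus strand) was at 683 CPM (605 to 768) against 112.1 CPM in WT and at 460.3 CPM (391 to 538) against 74.2 CPM in AKO, or 394 CPM without that cell. *Jun* (chr4:95049034-95052222, minus strand) was at 129.7 CPM (97.1 to 169.6) against 19.8 CPM in WT and at 148.6 CPM (110.6 to 195) against 25.6 CPM in AKO, or 107.7 CPM without it. These 3 genes were thus between 4.19-fold and 6.61-fold higher in the chosen cells with either set of AKO cells.

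The other 3 genes differed less evenly. *Ier2* (chr8:84661331-84662852, minus strand), the most abundant of the 6 in the remaining cells, was at 487 CPM (422 to 559) against 269 CPM in WT and at 658 CPM (575 to 750.0) against 347 CPM in AKO, 1.81-fold and 1.90-fold higher. *Junb* (chr8:84974484-84978718, minus strand) was at 78.3 CPM (53.6 to 110.5) against 44.2 CPM in chosen and remaining WT cells, and at 312 CPM (255 to 377) against 48.1 CPM in AKO. The highest AKO cell carried 56 of the 107 *Junb* UMIs of the chosen AKO cells, and without it the level was 157 CPM, 3.29-fold over the remaining cells. *Atf3* (chr1:191170296-191218039, minus strand) had a single UMI in the chosen WT cells, 2.45 CPM (0.0619 to 13.6) against 4.68 CPM (3.36 to 6.35), so it did not mark them. In AKO *Atf3* had 10 UMIs in chosen cells, 29.1 CPM (14.0 to 53.6) against 8.498 CPM, and 9 of these were outside the highest cell.

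**Figure D2:**
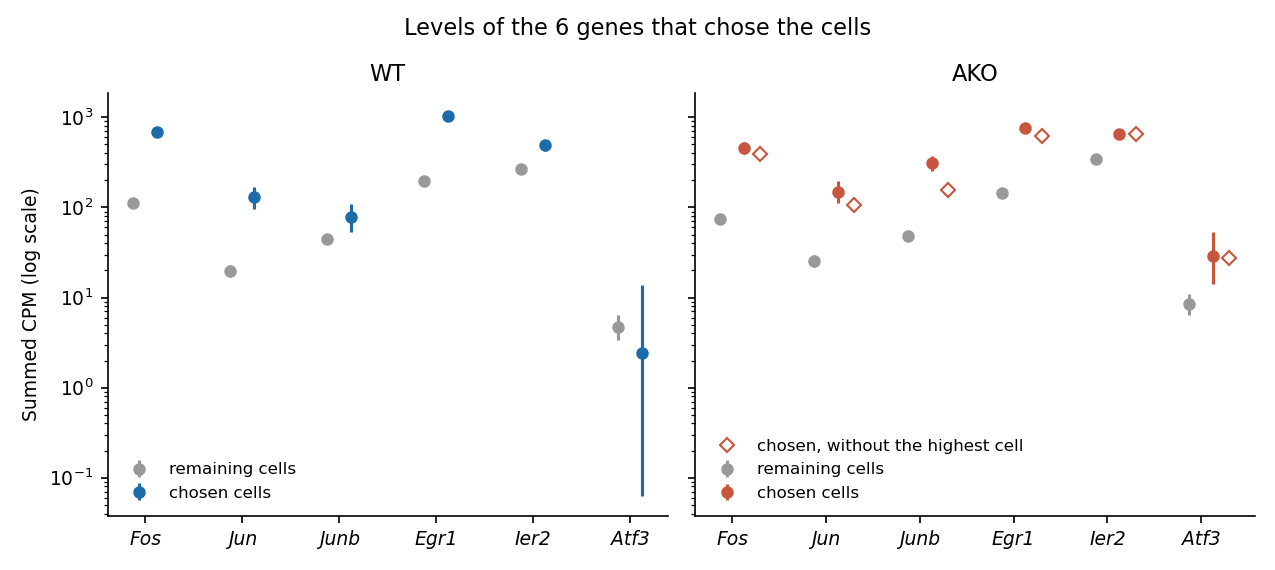
Summed CPM (vertical axis, log scale) of the 6 genes in the remaining cells (grey) and the chosen cells (colour) of WT and AKO, with exact 95% Poisson intervals, and open diamonds, without intervals, for the chosen AKO cells without the highest cell. *Fos*, *Jun* and *Egr1* stood far apart between chosen and remaining cells in both libraries, *Ier2* less so, and *Atf3* in WT rested on 1 UMI.

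The mixture of the 6 genes differed between the libraries, in the remaining cells as well as in the chosen ones. Among the chosen WT cells 35 had more UMIs of *Egr1* than of any other of the 6, 18 were led by *Fos*, 5 by *Ier2* and 2 by *Jun*, and 8 had a tie. Among the chosen AKO cells 18 were led by *Ier2*, 11 by *Egr1* and 6 by *Fos*, with 4 ties. *Egr1* made up 42.6% of the 6 genes' UMIs in chosen WT cells and 32.3% in chosen AKO cells, and *Ier2* made up 20.3% and 27.7%. Without the highest AKO cell the order in AKO turned, with *Ier2* at 33.3% and *Egr1* at 31.4%. In the remaining cells *Egr1* made up 30.3% in WT and 22.5% in AKO, and *Ier2* made up 41.7% and 53.4%. At least 4 of the 6 genes were found in 35 of 68 chosen WT cells (51.5%) and 25 of 39 chosen AKO cells (64.1%), against 10.97% and 16.8% of the remaining cells, which the choice itself favours.

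Whether the early genes went together was examined by choosing the cells again with 5 of the 6 genes and reading the gene left out. In WT *Jun* was then 4.12-fold higher in the chosen cells (interval 2.80 to 5.91), *Fos* 2.58-fold (2.14 to 3.09), *Egr1* 2.55-fold (2.21 to 2.92) and *Ier2* 1.24-fold (1.04 to 1.48). *Jun* was at 3.23-fold (2.09 to 4.82) without the highest WT cell. *Junb* was at 1.11-fold (0.668 to 1.73), an interval that contains 1, and *Atf3* had a single UMI. In AKO without the highest cell *Jun* was 3.19-fold higher, *Egr1* 2.11-fold, *Fos* 2.05-fold, *Junb* 1.86-fold and *Ier2* 1.25-fold, and *Atf3* was at 1.78-fold with an interval that contains 1. With the highest cell included *Junb* was at 4.93-fold (3.85 to 6.26) and *Fos* at 3.13-fold (2.43 to 3.97). *Fos*, *Jun* and *Egr1* were thus each higher in cells picked without them in both libraries, beyond counting error. They stayed so when each cell was first thinned to 2000 UMIs, where without the highest cell AKO had 1.82-fold (1.07 to 2.92) for *Jun*, 1.70-fold (1.26 to 2.26) for *Fos* and 1.47-fold (1.17 to 1.82) for *Egr1*. *Ier2* did not in AKO, at 1.17-fold (0.991 to 1.38) and, without that cell, 1.11-fold (0.936 to 1.32), while in WT it was at 1.42-fold (1.21 to 1.65).

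**Figure D3:**
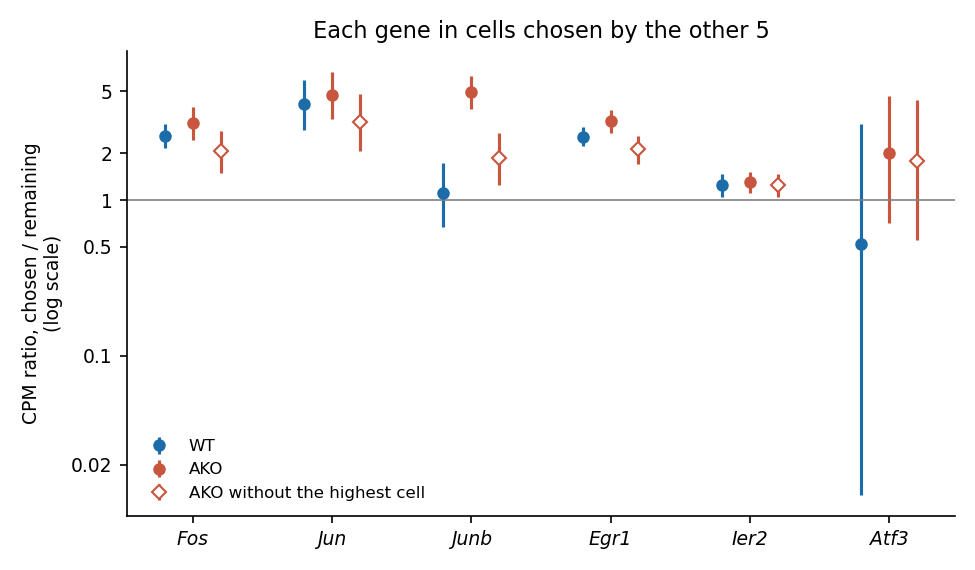
Ratio of CPM in chosen to remaining cells (vertical axis, log scale) for each of the 6 genes when the cells were chosen by the other 5, for WT (blue), AKO (red) and AKO without the highest cell (open diamonds), with exact 95% intervals for a ratio of counts. *Fos*, *Jun*, *Egr1* and *Ier2* lay above 1 in each set, while *Junb* in WT and *Atf3* had intervals that contain 1.

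Outside the 6 genes, 3150 genes had at least 400 UMIs over the kept cells of each library and were compared. Few differed in both libraries: 8 genes (0.254% of those compared) were at least 1.5-fold higher in the chosen cells of WT and of AKO, and 5 (0.159%) at least 1.5-fold lower. Without the highest AKO cell 6 genes (0.19%) were higher and 4 (0.127%) lower, all of them among those 8 and 5. *Btg2* and *Cdkn1a* fell short of 1.5-fold in WT when the highest WT cell was left out, as given below. In a single library the counts were larger, with 28 higher and 61 lower in WT, 72 higher and 112 lower in AKO and 47 higher and 96 lower in AKO without the highest cell. The median ratio of all compared genes was 0.997 in WT and 0.983 in AKO.

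*Dusp1*, the phosphatase that inactivates MAP kinases, had the highest ratio of the 8 genes in WT, while *Btg2* had it in AKO with and without the highest cell. *Dusp1* was at 247 CPM (201 to 300.3) in chosen against 128.5 CPM in remaining WT cells, and at 530.2 CPM (456 to 613) against 167.5 CPM in AKO. Without the highest cell, which held 70 of the 182 *Dusp1* UMIs of the chosen AKO cells, it was at 345 CPM (284 to 415). The ratio was 1.93 in WT (1.55 to 2.36) and 2.07 in AKO without that cell (1.68 to 2.50). *Dusp1* stayed called in 13 of the 14 other settings tried, failing at a 2-fold limit, though the settings with a lower gene minimum could not end a call. *Plk2*, a stress-induced polo-like kinase, was at 80.7 CPM (55.6 to 113) against 45.7 CPM in WT and at 142.7 CPM (105.6 to 189) against 72.3 CPM in AKO, or 126 CPM without the highest cell, which held 8 of its 49 UMIs.

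*Btg2*, an antiproliferative gene induced by p53 and by growth signals, was at 78.3 CPM (53.6 to 110.5) in chosen against 47.2 CPM in remaining WT cells. In AKO it was at 291 CPM (237 to 354) against 63.2 CPM, of which the highest cell gave 56 of 100 UMIs, and at 135 CPM without it (ratio 2.16, 1.53 to 2.93). *Cdkn1a*, which encodes the cyclin-dependent kinase inhibitor p21, was at 303 CPM (252 to 362) against 201.6 CPM in WT and at 673 CPM (589 to 766) against 175 CPM in AKO. The highest cell held 132 of the 231 *Cdkn1a* UMIs of the chosen AKO cells, and without it the level was 305 CPM, a ratio of 1.75 (1.40 to 2.14). In WT the *Cdkn1a* ratio of 1.51 (1.24 to 1.81) lay close to the limit. The highest WT cell held 9 UMIs of *Cdkn1a* and 4 of *Btg2*. Leaving it out put *Cdkn1a* at 284 CPM (234 to 340) and *Btg2* at 69.0 CPM (45.9 to 99.8) in WT. Both were then under 1.5-fold in WT.

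The other 4 higher genes, like *Cdkn1a*, were not in the list of early-response genes described below. *Sdc4*, the cell-surface proteoglycan syndecan-4, was at 247 CPM (201 to 300.3) against 154.5 CPM in WT and at 245 CPM (195 to 303) against 134 CPM in AKO, with 1 UMI in the highest cell. *Tex19.1*, a germline and pluripotency gene that restrains retrotransposons, was at 112.6 CPM against 73.2 CPM in WT and at 213 CPM against 133.5 CPM in AKO, and the highest cell held 0 of its UMIs. The RhoA exchange factor *Arhgef12* (ratios 1.53 and 1.55) and the forkhead gene *Foxn3* (1.52 and 1.55) were just past the limit and fell short of it in AKO without the highest cell, at 1.43 and 1.44.

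The 5 lower genes were of low level and their intervals were wide. Those of *Grhpr* in WT (0.331 to 1.08) and of *Ltbp4* (0.359 to 1.04) and *Tns3* (0.379 to 1.03) in AKO contain 1. *Fasn*, fatty acid synthase, was at 51.4 CPM (31.8 to 78.5) against 99.8 CPM in WT, and its AKO levels were 67 CPM (42.5 to 100.5) and 117.0 CPM. *Pla2g1b*, a secreted phospholipase (ratios 0.648 and 0.609), *Grhpr*, a glyoxylate reductase (0.649 and 0.584), *Ltbp4*, which binds latent TGF-beta (0.479 and 0.652), and *Tns3*, a focal adhesion protein (0.590 and 0.663), had 11 to 22 UMIs each in the chosen cells of a library. *Ltbp4* was at 0.688 in AKO without the highest cell, short of the limit. The full CRE was in 0 of the 5 genes' windows.

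**Figure D4:**
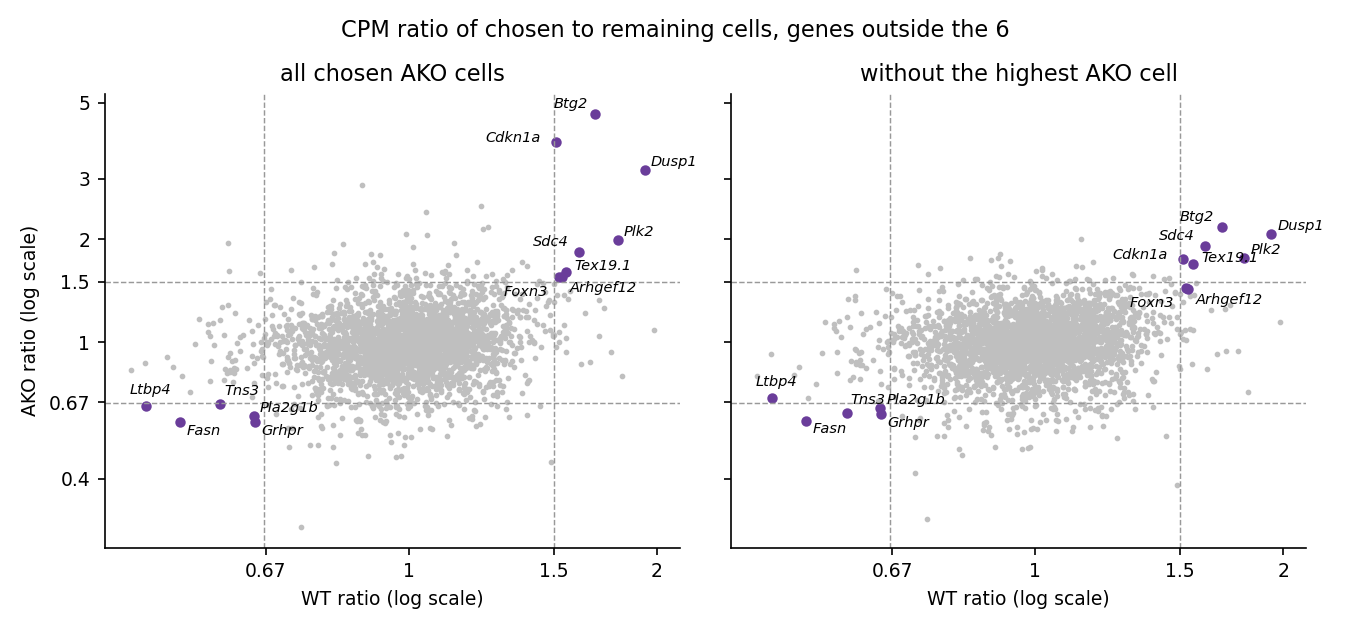
Ratio of CPM in chosen to remaining cells for the 3150 compared genes in WT (horizontal axis) and AKO (vertical axis), both on log scales, with all chosen AKO cells (left) and without the highest AKO cell (right). Dashed lines mark 1.5-fold, and the 13 named genes in purple are those past it in both libraries on the left. On the right *Btg2*, *Cdkn1a* and *Dusp1* moved down towards 2, and *Arhgef12*, *Foxn3* and *Ltbp4* lay inside the lines.

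The 3 early-response genes among the 8, *Dusp1*, *Btg2* and *Plk2*, were the only higher ones of 22 compared members of a list of 75 early-response genes outside the choice, and 0 members were lower, where 0.254% and 0.159% of all compared genes were. The median ratio of these 22 was 1.12 in WT, 1.34 in AKO and 1.16 in AKO without the highest cell, with 13, 16 and 15 of them above 1. Of all 3150 compared genes 48.9%, 46.1% and 49.3% were above 1. *Btg2* fell short of 1.5-fold in WT without the highest WT cell. Summed over all 75 genes the list was at 5332 CPM against 4531 CPM in WT, a ratio of 1.18 (1.13 to 1.23), and at 7472 CPM against 4481 CPM in AKO, a ratio of 1.67 (1.60 to 1.74). Without the highest AKO cell the AKO ratio was 1.21 (1.15 to 1.27). Chosen WT cells ranged from 2214 to 9266 CPM with a median of 5233. The remaining WT cells ranged from 0 to 11759 CPM with a median of 4423. In AKO without the highest cell the chosen cells ran from 2705 to 11285 CPM with a median of 5272. The remaining AKO cells ran from 303 to 10733 CPM with a median of 4307, so the ranges overlapped widely in both libraries.

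The 30 transcription factors of the list had a summed ratio of 1.23 (1.14 to 1.31) in WT, 1.68 (1.57 to 1.80) in AKO and 1.14 (1.05 to 1.24) in AKO without the highest cell. *Klf4*, an early gene and a naive pluripotency factor, was at 778 CPM against 599 CPM in WT (ratio 1.30, 1.16 to 1.45) and at 827 CPM against 542 CPM in AKO, or 613 CPM without the highest cell (1.13, 0.976 to 1.31). *Hes1*, a Notch target, had ratios of 1.16 in WT and 1.05 in AKO without that cell, both with intervals that contain 1.

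Several early genes under the 400 UMI minimum were picked out after their values were seen, and their AKO levels are given without the highest cell. Of the 26 members of the list that were not compared but had at least 100 UMIs in each library, 16 (61.5%) were above the remaining cells in WT and 18 (69.2%) in AKO without that cell, against 45.6% and 48.5% of all 4931 such genes. *Egr2*, a relative of *Egr1*, was at 17.1 CPM against 7.65 CPM in WT and at 36.9 CPM against 8.498 CPM in AKO without the highest cell. *Nr4a1*, an orphan nuclear receptor, was at 44.0 CPM against 29.0 CPM and at 89.3 CPM against 31.2 CPM. The WT ratios of both had intervals that contain 1 (0.867 to 4.87 and 0.886 to 2.45). *Zfp36*, whose protein destabilizes early mRNAs, was at 66.1 CPM against 42.7 CPM and at 83.1 CPM against 40.2 CPM, and *Ccn1*, a secreted matrix protein, at 75.9 CPM against 38.6 CPM and at 157 CPM against 39.2 CPM. *Fosb*, a partner of the JUN proteins, was at 46.5 CPM (28.0 to 72.6) against 20.8 CPM in WT and at 33.9 CPM against 20.2 CPM in AKO without that cell, where its ratio had an interval that contains 1 (0.815 to 3.09). *Phlda1* was at 58.7 CPM against 14.8 CPM in WT, but in AKO without the highest cell, which held 46 of its 49 UMIs in the chosen cells, it was at 9.23 CPM (1.90 to 27.0) against 15.9 CPM.

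Over 5 groups of cells ordered by the share of the 6 genes, the value of *Dusp1* was higher in each group than in the one before it, though most neighbouring groups had overlapping intervals. From the lower 50% of cells through the 50th to 75th, 75th to 90th and 90th to 95th percentile to the chosen cells it was at 108, 137, 164, 180.3 and 247 CPM in WT. The AKO values were 145, 172, 199, 288 and 530.2 CPM, the last being 345 CPM without the highest cell. *Cdkn1a* had the same order of values, at 184, 201, 242, 263 and 303 CPM in WT and at 166, 178, 187, 228 and 673 CPM in AKO, or 305 CPM without that cell. *Btg2* went from 43.8 CPM to 62.3 and 78.3 CPM in the lowest and the highest 2 groups of WT, but in AKO it lay between 49.2 and 74.0 CPM in the 4 lower groups, in no order. *Plk2* was flat in the 4 lower WT groups, between 44.7 and 49.0 CPM, while in AKO it was at 54.8, 96.2, 74.9 and 122 CPM before the 142.7 CPM of the chosen cells. The pluripotency factor *Pou5f1* lay between 732 and 864 CPM in WT and between 999.7 and 1096 CPM in AKO, and the replication gene *Pcna* between 622 and 661 CPM in WT. In AKO *Pcna* lay between 422 and 454 CPM in the 4 lower groups and was lowest in the chosen cells, at 387 CPM, or 409 CPM without the highest cell. *Gapdh* was lower in the top groups, at 3721 CPM in the lowest and 3274 CPM in the chosen WT cells, and at 5648 and 4964 CPM in AKO, or 5168 CPM without that cell. The proliferation gene *Mki67*, named after its values were seen, was at 177 and 147 CPM in the lowest and the top WT group and at 96.0 and 67 CPM in AKO, with overlapping intervals in both. In WT the lowest and the top group were apart for *Dusp1* (98.8 to 118 and 201 to 300.3 CPM) and for *Cdkn1a* (172 to 197 and 252 to 362 CPM), while the intervals of neighbouring groups overlapped at every *Cdkn1a* step and at every *Dusp1* step but the first. In AKO those of *Cdkn1a* in the 4 lower groups overlapped, from 152 to 180 CPM in the lowest and from 178 to 289 CPM in the fourth, as did those of *Dusp1* between neighbours of the 3 lowest groups. Depth moved with the groups in WT, from a median of 6409 UMIs in the lowest to 5577 in the chosen cells, and its part in these values was not tested.

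**Figure D5:**
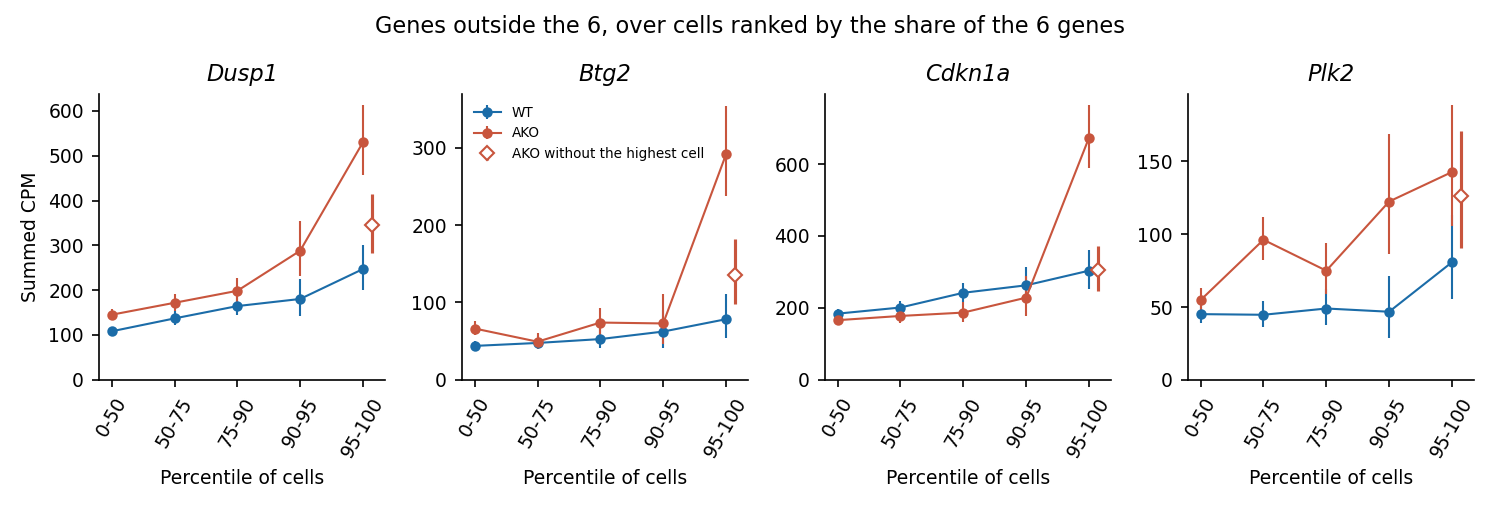
Summed CPM (vertical axes, from 0) of 4 genes outside the choice in cells grouped by percentile of the share of the 6 genes (horizontal axis), for WT (blue) and AKO (red), with exact 95% Poisson intervals and open diamonds for the top AKO group without the highest cell. The values of *Dusp1* and *Cdkn1a* were higher from group to group in both libraries, but the intervals of most neighbouring groups overlapped, *Btg2* in AKO and *Plk2* in WT stood higher in the top group alone, and *Plk2* in AKO was uneven.

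Collagen-rich cells held the 6 genes unevenly. The 34 WT cells that the collagen limit left out held 2965 CPM of the 6 genes (2795 to 3143), more than the 2403 CPM (2255 to 2558) of the chosen cells, and 25 of them (73.5%) lay past the share that chose the WT cells. *Ier2* was not higher there, at 251 CPM (204 to 307) against 269 CPM in the remaining WT cells and at 338 CPM against 347 CPM in AKO, and *Atf3* had 2 UMIs in WT and 1 in AKO. The WT cells held 1035 CPM of *Dusp1*, 1509 CPM of *Btg2*, 3001 CPM of *Cdkn1a* and 223 CPM of *Plk2*. The 5 such AKO cells held 1882 CPM of the 6 genes (1556 to 2255), and 3 of them lay past the AKO limit. In the chosen cells a list of 26 feeder fibroblast genes was at 1033 CPM against 1077 CPM in the remaining WT cells, a ratio of 0.959 (0.868 to 1.06), and at 1151 CPM against 1059 CPM in AKO without the highest cell (1.09, 0.977 to 1.21). With that cell the AKO ratio was 1.53 (1.40 to 1.67). Over single chosen cells the summed list ran from 0 to 2915 CPM in WT and from 0 to 1977 CPM in AKO without it. Over single remaining cells it ran from 0 to 3692 CPM in WT and from 0 to 56883.5 CPM in AKO, so the AKO reference also held feeder transcripts. The 3 collagens, which the limit on kept cells used, were at 14.7 CPM against 21.5 CPM in WT and at 21.6 CPM against 19.9 CPM in AKO without the highest cell, but at 151.5 CPM with it, a ratio of 7.60 (5.40 to 10.6). A collagen UMI was found in 6 of 68 chosen WT cells and 5 of 39 chosen AKO cells, against 160 of 1294 and 108 of 740 remaining cells. Among kept cells with a collagen share of 0, *Sdc4*, *Dusp1* and *Tex19.1* were past 1.5-fold in both libraries, as was *Plk2* (1.90 and 1.80), which then had too few UMIs for the minimum of 400. *Btg2* (1.42 and 2.22) and *Cdkn1a* (1.37 and 1.55) were short of it in WT.

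Barcodes under 500 UMIs, 2472 in WT and 4423 in AKO, were read as a stand-in for free RNA, which was not measured itself. They held 574 CPM of the 6 genes (505 to 649) in WT and 509.5 CPM (457 to 566) in AKO, against 646 CPM (629 to 663) and 650 CPM (630.2 to 670) in the remaining cells. *Dusp1* was at 310 CPM (260 to 366) and 299 CPM (259 to 343) in these barcodes, and *Btg2* at 127.5 and 138 CPM. Both were above the remaining cells of either library. In WT both were also above the chosen cells, at 247 CPM of *Dusp1* and 78.3 CPM of *Btg2*, with overlapping intervals. The chosen AKO cells held 530.2 CPM of *Dusp1* and 291 CPM of *Btg2*, or 345 and 135 CPM without the highest cell. *Fos* was at 232 CPM (189 to 282) and 163 CPM (134.3 to 197) in these barcodes, against 112.1 and 74.2 CPM in the remaining cells. *Cdkn1a* was at 253 CPM (208 to 304) against 201.6 CPM in WT and at 200.5 CPM (168 to 237) against 175 CPM in AKO. *Ier2* went the other way, at 123 and 140 CPM against 269 and 347 CPM. *Egr1* was also below the remaining cells, at 169 and 120 CPM against 195.5 and 146.3 CPM, with overlapping intervals. *Plk2* was at 47.8 CPM against 45.7 CPM in WT and at 53.5 CPM against 72.3 CPM in AKO. The part of free RNA in the ratios of *Fos*, *Dusp1*, *Btg2* and *Cdkn1a* was not tested.

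Of 9 compared members of a list of 20 p53 targets, *Cdkn1a*, *Btg2* and *Plk2* were past 1.5-fold in both libraries and 0 were lower, and 7 of 9 in WT and 9 of 9 in AKO, with or without the highest cell, had ratios above 1. Over all compared genes 0.254% were past the limit and 48.9% in WT and 46.1% in AKO were above 1. *Btg2* and *Plk2* also stand in the early-response list. *Cdkn1a* and *Btg2* fell short of 1.5-fold in WT without the highest WT cell. The list was at 1419 CPM against 1194 CPM in WT (ratio 1.19, 1.09 to 1.29), at 2598 CPM against 1334 CPM in AKO and at 1865 CPM in AKO without the highest cell (1.40, 1.29 to 1.52). The median ratio of its compared members was 1.23 in WT and 1.39 in AKO without that cell, against 0.997 and 0.998 over all compared genes.

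In the other lists 0 members were past 1.5-fold in both libraries, where 0.254% of all compared genes were higher and 0.159% lower, so a count of 0 says little of a list. The primed epiblast, 2C and trophectoderm lists had 0 members with enough UMIs to be compared. List ratios are given for WT and then for AKO without the highest cell, and for AKO with that cell where the value moved most. Core pluripotency genes were at 4003 CPM against 4078 CPM in WT and at 4214 CPM against 4220 CPM in AKO without the highest cell. Of these *Dppa5a* had ratios of 1.15 and 1.14 and *Pou5f1* 0.878 (0.778 to 0.984) and 1.01. Naive pluripotency genes had summed ratios of 1.02 and 1.06, with *Zfp42* at 0.976 and 1.23 and *Klf5* at 1.02 and 0.999. LIF and Stat3 genes were at 1.07 (1.005 to 1.13) and 1.02, the latter with an interval that contains 1. ERK target genes, which the MEK inhibitor acts on, were at 1.09 (0.959 to 1.22) and 1.13 (0.981 to 1.29), and at 1.45 (1.28 to 1.63) with the highest cell, with *Etv5* at 1.03 and 0.862 and *Spry2* at 1.06 and 1.26.

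Heat shock and chaperone genes had ratios of 1.01 (0.983 to 1.03) in WT and 0.974 (0.947 to 1.003) in AKO without the highest cell, led by *Hsp90ab1* at 0.981 and 0.961 and *Hsp90aa1* at 1.06 and 1.05. Integrated stress response genes were at 0.885 (0.822 to 0.952) and 1.03 (0.955 to 1.10), with their regulator *Atf4* at 1.09 and 1.05 and *Asns* at 0.708 and 1.07. SRF cytoskeleton targets were at 1.03 and 0.9997, with *Actb* at 1.01 and 0.929 and *Actg1* at 1.04 and 1.10. AP-1 and ATF partners were at 1.12 and 1.09, the latter with an interval that contains 1, and at 1.20 (1.08 to 1.34) with the highest cell. NF-kB and chemokine genes were at 1.17 and 1.19 with intervals that contain 1 (0.928 to 1.45 and 0.945 to 1.49), but at 2.01 (1.69 to 2.39) with the highest AKO cell. Wnt targets were at 0.849 (0.737 to 0.974) and 0.916 (0.790 to 1.06), with *Tcf7l1* at 0.710 and 0.941. Nucleolar and Myc target genes were at 0.976 and 0.962, with *Npm1* at 0.939 and 1.01 and *Ncl* at 1.01 and 0.833.

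Glycolytic enzymes were slightly lower, at 0.922 (0.887 to 0.958) and 0.949 (0.915 to 0.984), with *Gapdh* at 0.885 and 0.929 and the glucose transporter *Slc2a3* at 1.04 and 1.11. The sum of nuclear long noncoding RNAs differed in direction between the libraries, at 1.07 (1.04 to 1.09) in WT and 0.938 (0.908 to 0.968) in AKO without the highest cell, with *Malat1* at 1.26 and 0.891. The median ratio of its 5 compared members was above 1 in both, at 1.02 and 1.17, with 3 members above 1 in each. These values do not show whether the same members were above 1, and *Malat1* was not. The difference between the libraries was not tested. Markers of other lineages were low. Primitive endoderm genes were at 134.6 CPM against 152.4 CPM in WT and at 166 CPM against 171 CPM in AKO without that cell, trophectoderm genes at 125 CPM against 137 CPM and at 154 CPM against 128 CPM, and primed epiblast genes at 208 CPM against 224 CPM and at 194 CPM against 174 CPM. The 2C genes had 2 UMIs in the chosen cells of each library, too few to compare (ratio intervals 0.165 to 5.63 in WT and 0.190 to 6.69 in AKO without that cell). With the highest cell the primed epiblast genes were at 344 CPM in AKO, a ratio of 1.98 (1.62 to 2.39).

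Among cell cycle genes, the G2/M list had ratios of 0.915 (0.884 to 0.946) in WT and 0.934 (0.896 to 0.972) in AKO without the highest cell, with *Top2a* at 0.814 and 0.934 and *Hmgb2* at 1.04 and 0.977, and the S phase list was at 0.966 (0.927 to 1.01) and 0.971 (0.923 to 1.02), with *Pcna* at 1.02 and 0.933. After thinning each cell to 2000 UMIs, 33 of 68 chosen WT cells (48.5%, 36.2 to 61.0) were called G2/M, against 58.2% of the remaining cells. In AKO 15 of 39 (38.5%, 23.4 to 55.4) were, against 55.0%. When the thinning was drawn 10 other times, the chosen G2/M share ran from 32.4 to 66.2% in WT and from 33.3 to 46.2% in AKO. That of the remaining cells ran from 44.5 to 63.1% and from 45.3 to 56.6%. G1 calls made up 2 of the 68 WT and 12 of the 39 AKO cells, against 1.85% and 5.41% of the remaining cells, and over 10 other draws of the thinning the AKO share lay between 10.3 and 20.5%. Phase calls rest on these same lists and free RNA may enter them, so no difference in cycling is read from them.

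WT and AKO cells had nearly the same summed level of the 6 genes but not of its members. Over all kept cells the sum was at 724 CPM in WT (707 to 742) and 737 CPM in AKO (716 to 757), a ratio of 1.02 (0.981 to 1.06), which was 0.983 (0.947 to 1.02) without the highest AKO cell. *Fos* was lower in AKO, at 93.6 CPM against 137.6 CPM (ratio 0.681, 0.618 to 0.749), as was *Egr1*, at 177.5 CPM against 232 CPM (0.764, 0.711 to 0.820). *Ier2* was higher in AKO, at 363 CPM against 279 CPM (1.30, 1.23 to 1.37), and so were *Jun* at 31.8 CPM against 24.7 CPM, *Junb* at 61.3 CPM against 45.7 CPM and *Atf3* at 9.54 CPM against 4.58 CPM. *Junb* in the remaining cells alone was at 48.1 CPM in AKO and 44.2 CPM in WT, a ratio of 1.09 with an interval that contains 1 (0.934 to 1.27). In barcodes under 500 UMIs *Fos* was also lower in AKO, at 163 CPM (134.3 to 197) against 232 CPM (189 to 282). *Egr1* was at 120 CPM (95.6 to 150) against 169 CPM (132 to 212) there, and both pairs of intervals overlap. The 34 collagen-rich WT cells held 775 CPM of *Fos* and 1027 CPM of *Egr1*, and the 5 AKO ones 289 and 370 CPM. The part of these barcodes and cells in the differences was not tested. The genotype, the clone and the culture cannot be told apart with 1 library each.

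The chosen cells, which the share itself picked, held 2374 CPM of the 6 genes in AKO against 2403 CPM in WT, a ratio of 0.988 (0.899 to 1.09). Without the highest AKO cell the AKO level was 1949 CPM and the ratio 0.811 (0.733 to 0.897). With each cell thinned to 2000 UMIs, at least 4 UMIs of the 6 genes were found in 117 of 1362 WT cells (8.59%, 7.16 to 10.2) and in 55 of 779 AKO cells (7.06%, 5.36 to 9.09), intervals that overlap. Of the chosen cells 47 of 68 in WT and 29 of 39 in AKO reached 4 UMIs at that depth. The variance of the thinned counts was 1.66 times their mean in WT and 1.47 times in AKO, or 1.59 and 1.32 without the highest value of each library, where counts of equal rate would give a ratio near 1.

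Depth moved with the choice in WT. Chosen WT cells had a median of 5577 UMIs and 2806 genes, against 6400 UMIs and 3066 genes in the remaining cells, and chosen AKO cells had 7862 UMIs and 3506 genes against 8088 and 3518. Of WT cells with 2000 to 4000 UMIs 7.45% were chosen (3.91 to 12.7), of those with 4000 to 8000 UMIs 5.34% (3.94 to 7.06) and of deeper cells 2.94% (1.42 to 5.34). In AKO these were 3.66%, 5.96% and 4.56%. *Dusp1* was higher in the chosen WT cells within each band, at 2.28-fold (1.12 to 4.24), 1.58-fold (1.17 to 2.08) and 2.57-fold (1.76 to 3.63). The AKO bands had *Dusp1* at 2.04-fold (0.403 to 6.45, 3 chosen cells), 1.69-fold (1.13 to 2.45) and 3.92-fold (3.26 to 4.68). *Plk2* in AKO was at 0-fold (0 to 5.10), 2.70-fold (1.65 to 4.21) and 1.67-fold (1.07 to 2.49). In WT cells of at least 8000 UMIs *Cdkn1a* was at 0.804-fold (0.456 to 1.32), *Btg2* at 1.13-fold (0.409 to 2.52) and *Plk2* at 1.14-fold (0.363 to 2.72), all with intervals that contain 1. In the band of 4000 to 8000 UMIs they were at 1.53-fold, 1.88-fold and 1.80-fold. With the reference weighted to the depth of the chosen cells *Cdkn1a* (1.36) and *Sdc4* (1.45) fell short of 1.5 in WT. Among cells of at least 5000 UMIs, *Dusp1*, *Plk2* (1.67 and 2.00) and *Btg2* (1.62 and 4.86) had ratios past 1.5 in both libraries, the last 2 with too few UMIs there for the minimum of 400, and the other 5 genes were under 1.5 in WT. Mitochondrial shares had medians of 1.40% in chosen and 1.49% in remaining WT cells and of 2.05% and 1.93% in AKO, and RP shares medians of 9.05% and 8.68% and of 9.71% and 9.45%. Scrublet called 2 chosen cells of each library doublets, of 27 called in WT and 17 in AKO.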

How the data were processed

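Each genotype had 1 library. The authors ran the published inDrop pipeline on their reads, and the deposited values are whole UMI counts for each gene in each barcode, not normalized. The submitters' processing notes name mm10 and Seurat 2.3.4. The aligner and annotation are not given in the sources used here. The files count 63462 WT and 58924 AKO UMIs as ambiguous between genes, 0 value columns were left unmapped, and barcodes are numbered, so barcodes shared by the libraries could not be counted. Of 54146 gene identifiers 54079 were matched to GENCODE M21 (GRCm38) without and 52480 with their version. Gene coordinates are given from GENCODE where the version matched (for *Egr1* the chromosome alone), promoter windows and their coordinates are those of RefSeq, matched by symbol, and *Ccn1* is named as in GENCODE.

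Members and gene lists were chosen with earlier results of these data known. Cells were kept and chosen by the limits in the report, with ties in share broken by the UMIs of the 6 genes. Where cells were chosen after thinning, ties in the thinned count were broken by barcode order alone. UMIs were summed over cells and scaled to the cells' total UMIs (CPM). Ratios of chosen to remaining cells for single genes had 0.5 added to each count. Their exact intervals, sums over lists and ratios of genes left out of the choice did not. Neither did ratios within bands of depth or ratios of AKO to WT. A gene was called when it was 1.5-fold different in the same direction in both libraries, among genes with at least 400 UMIs in each. With 1 library per condition no test was made. Depth was 408697 UMIs in chosen and 8757905 in remaining WT cells and 343285 and 6471989 in AKO, so a gene at 100 CPM rests on few UMIs in the chosen cells. Named genes were the 6, all 8 higher and 5 lower genes, *Lin28a* and, for the main lists, the members past the limit or the 2 with the most UMIs. Doublets called by Scrublet in scanpy 1.11.5 were kept, and thinning used seed 1. The calculation was tested on simulated data with changes larger than 1.5-fold and with counting error only. That test does not bear on missed calls at the 1.5-fold limit or on variation between cells. Tables were handled in pandas 2.3.3 under Python 3.11.15, intervals came from scipy 1.17.1 with numpy 2.4.6, and plots from matplotlib 3.10.9. Alternatives are in the closing section. Values without the highest AKO cell (alone or with thinning), those without the highest WT cell and the 10 other thinning draws were added after seeing the data.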

Additional observations from a re-analysis of the deposited data

Results flagged for a closer look

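Of 310 list genes outside the choice with at least 100 UMIs in each library, 2 lay on opposite sides of 1 in the chosen cells of WT and AKO beyond counting error, a difference that was not tested. *Cebpb*, an early-response transcription factor, had a ratio of 6.04 in AKO and 0.214 in WT, and 1.08 (0.431 to 2.05) in AKO without the highest cell. *Tpm1*, an actin-binding tropomyosin, had 2.40 in AKO and 0.545 in WT, and 1.08 (0.527 to 1.84) without that cell.

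A signal of the 6 genes also appeared in cells that the choice left out for their collagen share, at 2965 CPM in WT and 1882 CPM in AKO, above the 646 and 650 CPM of the remaining ES cells.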

How the results depend on the processing

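The number of higher genes was 16 with the top 2% of cells, 2 with the top 10%, 2 with at least 5000 UMIs per cell, 3 with a collagen share of 0, 6 with the score after thinning (of the 8 only *Btg2* and *Dusp1*), 6 with the reference weighted to depth (without *Cdkn1a* and *Sdc4*), 90 with a gene minimum of 100 UMIs, 9749 with a minimum of 1 UMI and 0 at a 2-fold limit. With 5000 UMIs or no collagen only 2902 and 2683 genes met the minimum, which alone ended the calls of *Plk2* in both settings, of *Btg2* in the first and of *Grhpr* in the second. The number of lower genes was 51 with the top 2%, 0 with the top 10%, 3 with the score after thinning, 3 with the reference weighted to depth, 1 without doublets, 88 and 528 with minima of 100 and 1 UMI and 0 at a 2-fold limit. With a minimum of 1 UMI the 0.5 added to each count by itself puts genes with 0 UMIs in the chosen cells past the limit. *Dusp1* stayed called in 13 of 14 settings, *Btg2* and *Fasn* in 11 and the other 10 genes in 5 to 9. Among these settings the minima of 100 and 1 UMI could not end a call, and the 2-fold limit ended all of them. Where a count or ratio moved the cause was not tested.

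The early-response sum in AKO was 2.58 with the top 2%, 1.41 with the top 10%, 1.51 with the score after thinning, 1.46 as a mean of per-cell shares, 1.25 with a collagen share of 0 and 1.21 without the highest AKO cell. Held-out ratios after thinning were 1.99 for *Fos* in WT, 3.19 for *Jun* and 2.38 for *Egr1* in AKO, and without thinning but without the highest AKO cell 2.05 for *Fos*, 3.19 for *Jun*, 1.86 for *Junb* and 2.11 for *Egr1*. With both, a pairing chosen after seeing the data, AKO had 1.70 for *Fos*, 1.82 for *Jun*, 2.08 for *Junb* and 1.47 for *Egr1*, and the interval of *Ier2* contained 1 with thinning, with or without that cell. The share of chosen AKO cells called G1 was 10.3% without thinning. Ratios crossed 1 for *Tex19.1* in WT with the top 2% (0.926), and with the score after thinning for *Arhgef12* in WT (0.975) and *Pla2g1b* in AKO (1.03). The summed level of the 6 genes in AKO over WT stayed between 0.983 and 1.03 in the 7 settings tried. The share of AKO cells at 4 UMIs was not run at 500 UMIs per cell, since those cells hold too few to thin.

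No paired analysis was possible because each condition is 1 library and the labels carry no replicate numbers. Limits are the medians of 13 and 15 early-gene UMIs per chosen cell, 1 clone per genotype and intervals for counting error only.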
